A study of Homo sapiens with 80 samples.

Results

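The voltage-gated ion channel genes were followed through the differentiation of human pluripotent stem cells into cardiomyocytes. They were taken by symbol, as every KCN, SCN, CACN (alpha1, alpha2delta, beta and gamma) and HCN gene present in both tables of TPM, a measure of transcript abundance corrected for gene length and library size, without rows that carry a numbered suffix. Of the 43388 genes in the tables, 139 had such a symbol, and 109 of these reached at least 1 TPM in 3 or more of the 80 libraries and are described here. The other 30 are not: 24 reached 1 TPM in no library, and KCNJ1, KCNK10, KCNMB1, KCNN4, SCN2A and KCNK16 did so in 1 or 2. Next to the threshold, KCNK16 had 2 libraries at 1 TPM and a highest value of 1.385 TPM, while CACNA1F, just inside, had 3 libraries and a highest value of 1.378 TPM. The symbols are wider than the name of the set. The 109 genes fall into 22 families, of which the inward rectifiers (Kir, 13 genes), the leak channels of the K2P family (8 genes) and the calcium-activated SK channels (3 genes) do not open on depolarisation, and others encode accessory subunits that form no pore.

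Differentiations were classed as high or low purity on day 16 by flow cytometry for cTnT, the cardiac form of troponin T. In the multi-omic experiment, wells of 1 high purity differentiation (passage 52) and 1 low purity differentiation (passage 69) of the induced pluripotent line WTC11 were lysed every other day from day 0 to day 10 and then on days 13 and 16. Each group had 4 wells, except that the high purity class had 3, 1, 2 and 3 at the last 4 time points and the low purity class 3 at the last. The RNA-only experiment took the H9 embryonic line and the induced lines IMR90-4 and WTC11, with 1 differentiation of either class from each line and 1 library at each of 4 matched steps: day 0, days 2 or 3, days 4 or 5, and days 6 or 7, here stages 1 to 4. The high and low purity passages were 58 and 55 for H9, 55 and 75 for IMR90-4, and 81 and 69 for WTC11. Every differentiation was seeded with the ROCK inhibitor Y-27632, received the GSK3 inhibitor CHIR99021 on day 0, then the Wnt secretion inhibitor IWP2, and B27 supplement first without and later with insulin. In the multi-omic experiment purity, passage and differentiation cannot be told apart, and p-values measure the spread between wells of 1 differentiation. The labels give passage 69 to the low purity WTC11 differentiation of both experiments, and do not say whether it is the same one.

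An action potential is shaped by channels that open in turn: sodium and calcium channels carry the inward currents that depolarise a cardiac myocyte, and potassium channels carry the outward currents that repolarise it. HCN channels carry the pacemaker current, and inward rectifiers set the resting potential. Accessory subunits change how much pore protein reaches the membrane and how fast it opens and closes. Cardiomyocytes made from stem cells beat on their own and resemble fetal heart cells more than adult ones, and stromal and smooth muscle cells that arise beside them have channels of their own.

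Libraries held 6579715 to 18143597 assigned reads in the multi-omic experiment (poly(A) RNA) and 17990882 to 40357968 in the RNA-only experiment (total RNA). Levels are therefore compared only within an experiment. All 14 cardiomyocyte markers looked at rose from day 0 to day 16 in both multi-omic differentiations, and cell type markers are given in the paragraphs on days 4, 6, 8, 13 and 16. In bulk RNA, fewer cells of a type and less RNA per cell cannot be told apart.

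Promoters from RefSeq (GRCh38.p14) were at hand for 77 of the 109 genes, each running from 250 bases before the annotated start to 50 after it. Those of 4 genes that the results turn on are shown 5′ to 3′ with every GGGCGG, the letters of a GC box, on either strand in capitals. KCNIP2 and CACNA1D ended higher in the high purity differentiation, and KCNJ3 and KCNMA1 in the low purity one. The KCNIP2 window is chr10:101843751-101844050 (minus strand), that of CACNA1D is chr3:53494361-53494660 (plus strand), that of KCNJ3 is chr2:154698445-154698744 (plus strand) and that of KCNMA1 is chr10:77637759-77638058 (minus strand).
KCNIP2: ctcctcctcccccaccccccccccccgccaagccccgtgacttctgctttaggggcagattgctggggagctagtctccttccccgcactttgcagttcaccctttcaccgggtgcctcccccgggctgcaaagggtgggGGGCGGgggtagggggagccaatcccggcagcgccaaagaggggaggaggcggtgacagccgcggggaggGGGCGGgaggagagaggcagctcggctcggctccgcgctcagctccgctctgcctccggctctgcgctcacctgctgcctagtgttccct
CACNA1D: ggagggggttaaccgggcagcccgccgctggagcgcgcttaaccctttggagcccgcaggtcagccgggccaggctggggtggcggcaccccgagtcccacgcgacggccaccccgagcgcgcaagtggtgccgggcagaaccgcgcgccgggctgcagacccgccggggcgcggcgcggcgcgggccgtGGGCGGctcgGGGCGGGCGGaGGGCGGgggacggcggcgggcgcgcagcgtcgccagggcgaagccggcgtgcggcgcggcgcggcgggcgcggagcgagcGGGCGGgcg
KCNJ3: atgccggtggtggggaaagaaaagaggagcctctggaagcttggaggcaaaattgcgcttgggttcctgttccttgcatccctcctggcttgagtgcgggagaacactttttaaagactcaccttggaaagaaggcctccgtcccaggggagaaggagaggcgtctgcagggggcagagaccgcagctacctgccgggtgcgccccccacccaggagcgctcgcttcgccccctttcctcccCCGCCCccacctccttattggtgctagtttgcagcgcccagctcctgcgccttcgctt
KCNMA1: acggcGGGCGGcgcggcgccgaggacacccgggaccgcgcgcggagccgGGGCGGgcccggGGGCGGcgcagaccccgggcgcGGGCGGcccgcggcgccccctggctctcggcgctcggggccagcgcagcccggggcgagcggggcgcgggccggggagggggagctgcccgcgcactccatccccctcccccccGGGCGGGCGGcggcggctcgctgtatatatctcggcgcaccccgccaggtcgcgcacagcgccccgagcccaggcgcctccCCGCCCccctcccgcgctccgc

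GGGCGG occurred 2 times in the KCNIP2 window, 5 times in that of CACNA1D, 1 time in that of KCNJ3 and 7 times in that of KCNMA1, overlapping matches counted separately. It was present in 68.8% of the 77 channel promoters and in 44.6% of all 27305 promoters of the same length, and the median GC content was 67% against 58.33%. Letters of cardiac factor motifs were less frequent among the channel promoters than among all promoters for 4 of 5 motifs. GATAA, the core bound by GATA factors, was in 10.4% against 23.2%, TNAAGTG, the core of NKX2-5 sites, in 2.6% against 10.3%, and AGGTGT, the core of T-box sites, in 2.6% against 11.4%. TATAAA was in 5.19% against 12%, all on either strand. None of the 4 printed windows held any of these other letters. The MEF2 box was in 0 of the 77 against 3.09% of all promoters, and the CArG box, bound by SRF, in 1.3% against 1.29%. These shares describe letters in short windows and were not tested.

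The first question was how channel levels changed over differentiation. Summed over the 109 genes, the level rose from 362 to 385 TPM on day 0 to 789 to 868 TPM on day 16 in the high purity wells, and from 327 to 343 to 594 to 622 TPM in the low purity wells. The lowest high purity sum lay above the highest low purity sum on both of these days, but on day 8 the high purity sums, 541 to 624 TPM, lay below the low purity sums, 657 to 699.9 TPM. The genes turned over rather than rising together. In the high purity differentiation, day 0 held the highest mean of 19 genes, day 2 of 25, day 4 of 17, day 6 of 8, day 8 of 4, day 13 of 9 and day 16 of 27. A gene was called changed where limma's adjusted p was under 0.05 and the fold change at least 2 (a log2 fold change of 1, on the log2(TPM + 1) scale, which understates changes of low genes). From day 0 to day 16, 29 genes rose and 26 fell in the high purity differentiation, so that 55 of 109 were called, beside 35.4% of all 25664 genes tested (19.4% up and 16% down). In the low purity differentiation 30 rose and 22 fell, 52 in all, beside 34.1% of all genes (19.5% up and 14.6% down). Both differentiations shared 22 risers and 21 fallers, counts that are not set beside the shared calls among all genes.

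HCN4, the main pacemaker channel of the sinoatrial node, had the highest mean of any channel gene over the multi-omic libraries, at 43.6 TPM (TPM is per transcript length, so genes can be ranked on it). This rank pools all days, and on single days other genes had a higher mean. In both classes KCNK5 did on day 0, KCNH5 on day 2 and KCNK12 on day 4, among others. On day 6 KCNK1 did in the high and KCNJ3 in the low purity wells. KCNIP2 did in the high purity wells of days 8 and 16. The HCN4 wells of day 0 read 6.13, 5.68, 7.64 and 5.70 TPM in the high purity class and 5.36, 4.79, 4.92 and 3.65 TPM in the low purity class. By day 16 the wells read 97.9, 101 and 101 and 82.4, 79.9 and 84.4 TPM, and the log2 change was 4.04 in the high and 3.85 in the low purity differentiation. CACNA1C, the pore of the cardiac L-type calcium channel Cav1.2, rose by 4.71 and 4.09 on the log2 scale, in that order of classes. CACNA1D, the L-type pore Cav1.3 of pacemaker cells, rose by 4.56 and 2.74, and CACNA1G, a T-type calcium pore, by 2.99 and 1.62. Of the 8 inward current genes tested, 5 rose in the high and 6 in the low purity differentiation, and none fell in either. CACNA1H, a T-type pore, was called in neither.

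Potassium channel genes of the heart rose too. KCNH2 (hERG), which carries the rapid delayed rectifier, changed by 2.80 and 1.94 in the high and low purity differentiation, and its relative KCNH7 by 5.88 and 3.77. KCNQ5, an M-type channel, changed by 5.83 and 3.94. KCNA4, a pore of the transient outward current, was at 0 TPM in all 8 wells of day 0 and read 9.29, 9.68 and 7.28 TPM in high and 11.8, 10.9 and 9.10 TPM in wells of low purity on day 16. KCNA5, the ultrarapid delayed rectifier of the atrium, rose by 3.88 and 4.04. KCNJ5 (GIRK4), which pairs with KCNJ3 (GIRK1) to form the atrial channel opened by acetylcholine, rose from 0 TPM in 7 of the 8 wells of day 0 and 0.0312 TPM in the other to at least 8.72 TPM in all 6 wells of day 16. KCNJ8, the pore of a vascular ATP-sensitive channel, rose by 2.49 and 2.13, and KCNJ4 (Kir2.3) by 2.60 and 2.40. Over the 17 outward current genes, 10 rose and 1 fell in the high and 9 rose and 1 fell in the low purity differentiation, with a median log2 change of 1.28 and 1.59, beside 0.05 and 0.09 over all genes tested.

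Other channel genes were highest before differentiation began. KCNK5 (TASK-2), a leak channel, read 37.5, 33.5, 37.8 and 32.2 TPM in the high and 31.4, 26.1, 31.8 and 30.8 TPM in the low purity wells on day 0. On day 16 it read 0, 0 and 0.135 and 1.57, 0.773 and 0.574 TPM, below every well of day 0, and the log2 changes were -5.18 and -4.11. KCNG3, a silent subunit that forms channels only with other Kv subunits, fell from 20.1, 16.6, 22.9 and 17.0 TPM and 16.1, 21.1, 15.5 and 15.5 TPM on day 0 by log2 changes of -4.10 and -4.11. The 1 outward current gene that fell was KCND2 (Kv4.2), known as a transient outward pore. Its wells read 8.16, 8.51, 8.40 and 8.67 TPM in the high and 8.11, 8.68, 8.09 and 8.54 TPM in the low purity class on day 0, and 0.0682, 0.0795 and 0.0881 and 0.551, 0.581 and 0.929 TPM on day 16. CACNG7, a gamma subunit better known as a partner of glutamate receptors, changed by -4.04 and -3.27.

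Purity classes were compared next. On day 0 no channel gene was called by limma, beside 1.07% of all genes (0.242% higher and 0.826% lower), with 25 members at an unadjusted p under 0.05 (25.7% of all genes). On reads recovered from the TPM values, edgeR and DESeq2 each called 4 (2.65% and 3.02% of all genes): CACNA1I and KCNN3 were higher and KCNIP4 and KCNJ6 lower in high purity wells, genes named after their values were seen. On day 2, 5 genes were called, 2 higher (2.25% of all genes) and 3 lower (3.07%), beside 5.32% in either direction, and without scaling between libraries 4, 1 higher and 3 lower. Day 4 had 18 calls, 9 higher (3.62% of all genes) and 9 lower (4.22%), beside 7.84% in all, and day 6 had 19, 10 higher (3.61%) and 9 lower (5.19%), beside 8.8%. Day 8 had 26, 14 higher (4.66%) and 12 lower (7.5%), beside 12.2%, or 28, 12 higher and 16 lower, without scaling, which moved the median of all genes to -0.18 on the log2 scale. Day 13 had 21, 12 higher (4.55%) and 9 lower (6.23%), beside 10.8%, and day 16 had 26, 16 higher (5.76%) and 10 lower (7.65%), beside 13.4%. From day 2 onwards the calls were 4.59%, 16.5%, 17.4%, 23.9%, 19.3% and 23.9% of the 109 channel genes, in order of day, and the gap to all genes was not tested. Over the 7 days tested, 48 channel genes were called at least once, 24 only higher, 18 only lower and 6 in both directions. The other 61 were called on no day. These pooled counts describe the channel genes only and are not set beside all genes. KCNJ12 and KCNJ5 were higher and KCNK6 and KCNMA1 lower in high purity wells on 5 or more days.

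**Figure D1:**
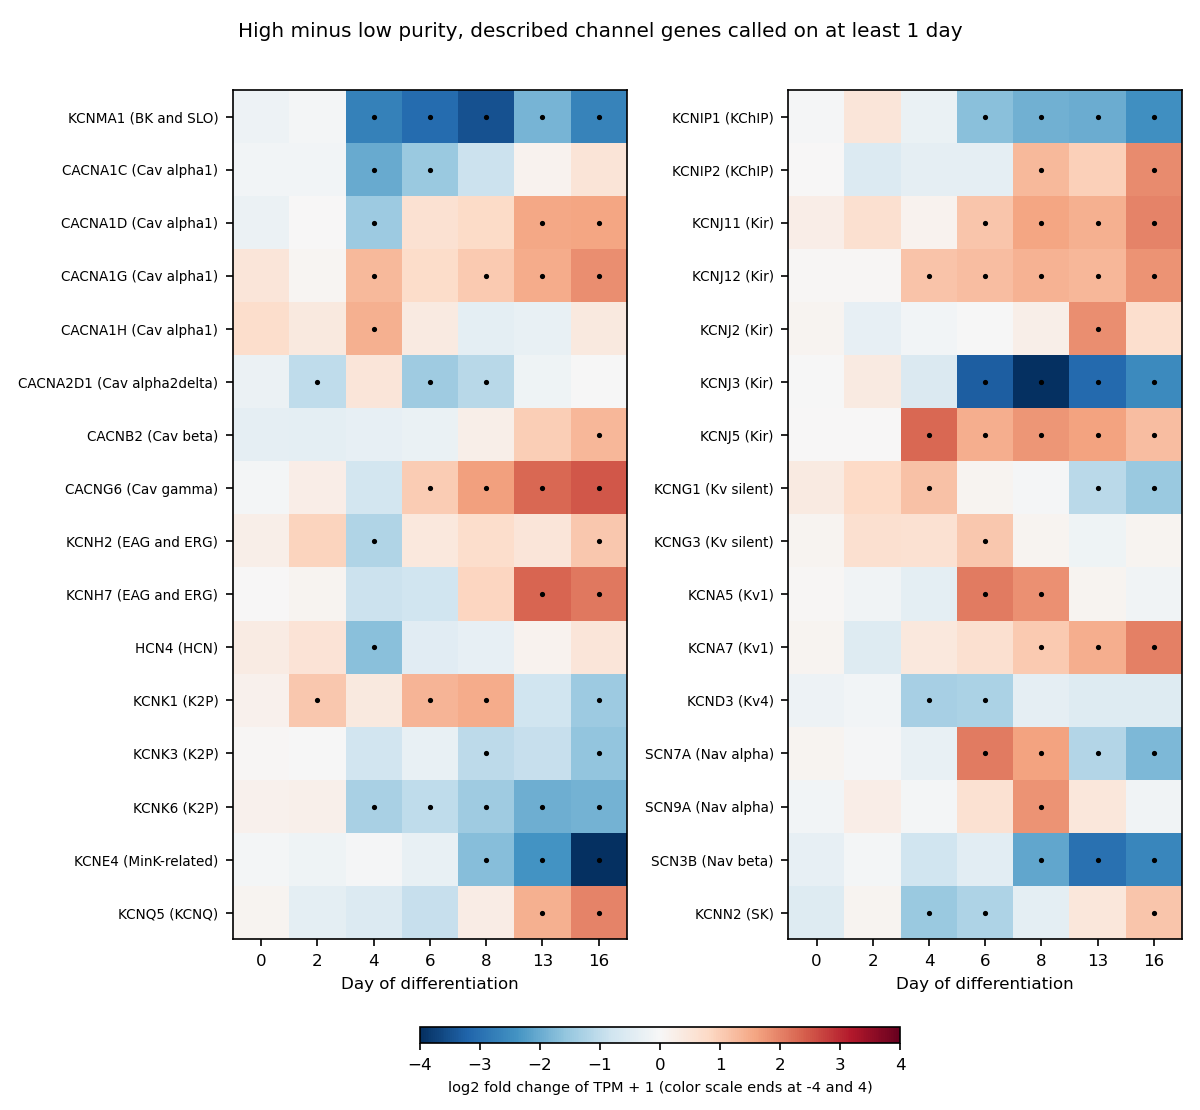
Log2 fold change (colour, high minus low purity, on the log2(TPM + 1) scale) on each of the 7 tested days (columns) for 32 of the 48 channel genes called on at least 1 day, those whose wells are described in the text (rows, sorted by family), with a dot where a gene was called. Blue cells (lower in high purity wells) run from day 4 for KCNMA1 and KCNK6, CACNA1D changes from blue on day 4 to red on days 13 and 16, and no dot stands on day 0.

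**Figure D2:**
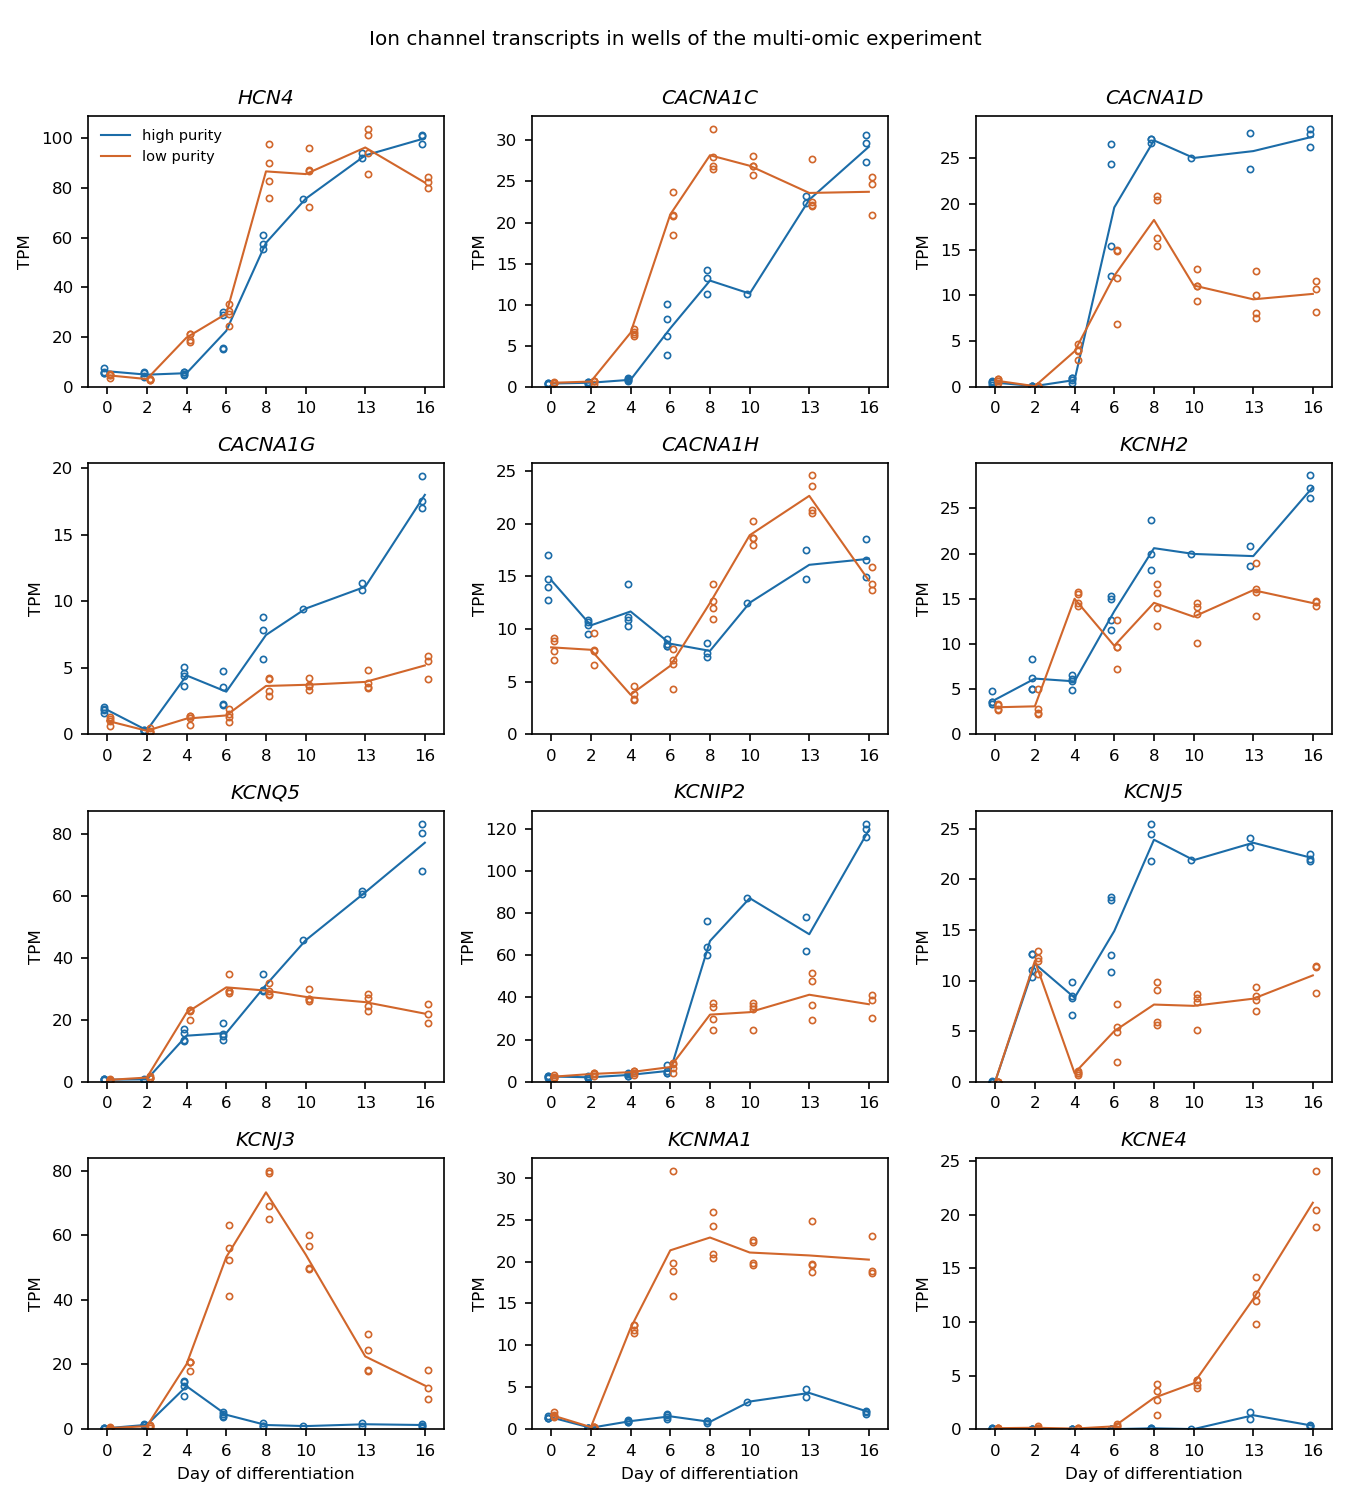
Level of 12 channel genes (vertical axis, TPM, its own scale in each panel) by day of differentiation (horizontal axis), 1 point per well, high and low purity wells in separate colours, with lines through the group means. CACNA1C, CACNA1D and HCN4 are higher in low purity wells on day 4, CACNA1D is higher in high purity wells on day 16, and KCNJ3 is higher in low purity wells from day 4.

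Among the pores of the inward currents, day 4 split the genes. CACNA1C stood at 0.809, 0.676, 0.925 and 1.02 TPM in the high purity wells and at 6.14, 6.62, 6.47 and 7.09 TPM in the low purity wells. Every low purity well lay above every high purity well, with a log2 fold change (high minus low) of -2.00 (SE 0.12, adjusted p = 4.86e-18). CACNA1D wells read 0.407, 0.710, 0.936 and 0.919 TPM in the high and 3.97, 4.64, 3.98 and 2.96 TPM in the low purity class, again without overlap, a difference of -1.46 (SE 0.17, adjusted p = 1.83e-09). HCN4 wells read 6.14, 4.74, 5.16 and 5.98 TPM against 21.3, 18.2, 18.9 and 21.1 TPM, and the difference was -1.67 (SE 0.13, adjusted p = 3.5e-14). The T-type calcium channel genes lay the other way on the same day. CACNA1H read 11.2, 10.3, 14.3 and 10.9 TPM in high and 3.27, 4.63, 3.78 and 3.34 TPM in low purity wells, a difference of 1.41 (SE 0.10, adjusted p = 3.3e-15). CACNA1G read 4.39, 3.61, 5.04 and 4.61 against 1.38, 1.33, 1.25 and 0.731 TPM, a difference of 1.31 (SE 0.14, adjusted p = 2.11e-10). The high purity wells of both genes lay above all low purity wells. Of the 8 inward current genes, 3 were higher and 3 lower on day 4, with a median log2 fold change of 0.05 beside 0 over all genes.

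On that day 10 of the 14 cardiomyocyte markers were also called lower and 1 higher in the high purity wells, whose summed marker level was 321 to 390.0 TPM against 2039 to 2341 TPM. The summed level of the 9 fibroblast and stromal markers was 434 to 628 against 1569 to 1624 TPM, with 6 called lower and DCN at 0 in the high purity wells. Smooth muscle markers summed to 63.8 to 74.7 against 299.5 to 364 TPM, with 4 of 6 tested called lower. MYH11, the listed smooth muscle marker that was not tested, was at 0 in both classes. The 7 pluripotency markers summed to 1853 to 2451 against 971 to 1094 TPM, with 3 called higher. Their part in the results was not tested. At stage 3 of the RNA-only experiment the cardiomyocyte markers did not have this order in every line. They summed to 199 TPM in the high and 116 TPM in the low purity WTC11 library, and to 426 and 307 TPM in those of IMR90-4. In H9 the low purity library was higher, at 371 against 209 TPM.

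Markers also differed between the classes on days 6, 8 and 13, from which several channel results below come. Fibroblast and stromal markers summed to 954 to 1264 against 3274 to 5061 TPM on day 6, 599 to 719 against 4952 to 5960.0 TPM on day 8 and 847 to 1058 against 8683 to 11160 TPM on day 13, with 6, 7 and 7 of 9 called lower in high purity wells. Of the 8 endothelial markers 6 were called higher on each of these days, with a median log2 fold change of 2.04, 2.79 and 2.05. On day 6 TEK was called lower (-1.55), and on day 13 TEK (-2.82) and KDR (-1.84) were. The endothelial sums overlapped on days 6 and 8 and were lower on day 13. Of the 6 endoderm markers 4 were called higher on each day, and AFP was called lower on day 6 (-2.65). The endoderm sums were 864 to 1293 against 316 to 522 TPM on day 6 and 837 to 1601 against 222 to 379 TPM on day 8. On day 13 they overlapped, at 745 to 765 against 614 to 1410 TPM. The cardiomyocyte markers had 2 called higher and 1 lower on day 6, 10 higher and 1 lower on day 8, and 9 higher on day 13. Smooth muscle marker sums overlapped on day 6, at 369 to 710 against 703 to 795 TPM. On day 8 they also overlapped, at 958 to 1123 against 980 to 1403 TPM. On day 13 they were 260.5 to 333 against 1170 to 1220 TPM. Epicardial sums were 13.4 to 17.1 against 177 to 303.5 TPM on day 6. They were 8.27 to 11.05 against 391 to 477 TPM on day 8 and 40.3 to 46.8 against 551 to 680 TPM on day 13. The part of these cell types in the channel results was not tested.

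By day 16 no inward current gene was called lower in the high purity wells, and 3 were higher, CACNA1D and CACNA1G among them. CACNA1D read 27.6, 28.2 and 26.2 TPM in high and 8.16, 10.8 and 11.6 TPM in low purity wells, so that its order was the reverse of day 4, with a log2 fold change of 1.58 (SE 0.20, adjusted p = 6.46e-09). CACNA1G read 17.0, 19.4 and 17.5 against 4.14, 5.89 and 5.47 TPM, a difference of 1.85 (SE 0.16, adjusted p = 4.63e-13). CACNA1C, at 27.4, 29.7 and 30.6 and 20.9, 24.7 and 25.6 TPM, had high purity wells above all low purity wells but stayed under the 2-fold line, at 0.51 (SE 0.14, adjusted p = 0.00271). HCN4 did the same, at 0.50 (SE 0.15, adjusted p = 0.007). CACNA1H overlapped between the classes, at 14.9, 18.5 and 16.5 and 15.9, 14.2 and 13.7 TPM. The pacemaker channel HCN2, at 1.03, 0.600 and 1.20 against 2.48, 2.24 and 3.35 TPM, was not called by limma, but was called lower on recovered reads, at -1.22 by edgeR (adjusted p = 0.0138).

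Some sodium channel genes differed early. SCN7A, a sodium channel that senses extracellular sodium, read 16.7, 15.3, 20.1 and 10.9 TPM in the high and 3.63, 3.60, 2.19 and 1.90 TPM in the low purity wells on day 6, a difference of 2.09 (SE 0.15, adjusted p = 1.84e-15). On day 16 the order was the reverse, 0.170, 0.0660 and 0.0219 against 3.58, 2.66 and 1.88 TPM, a difference of -1.79 (SE 0.17, adjusted p = 9e-12). SCN9A, the Nav1.7 channel of sensory neurons, read 12.6, 8.58 and 5.70 TPM in the 3 high and 1.81, 2.65, 2.21 and 1.82 TPM in the 4 low purity wells of day 8, a difference of 1.80 (SE 0.15, adjusted p = 1.46e-13). In both genes the classes were fully separated on these days.

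Among the delayed rectifier genes KCNH2 was called on opposite sides on days 4 and 16. It read 6.55, 4.87, 6.15 and 5.84 TPM in high and 15.5, 14.5, 14.2 and 15.7 TPM in wells of low purity on day 4, a difference of -1.22 (SE 0.15, adjusted p = 4.22e-09). It read 27.3, 28.7 and 26.1 against 14.2, 14.6 and 14.7 TPM on day 16, a difference of 1.09 (SE 0.17, adjusted p = 8.45e-07), so the class with more KCNH2 differed between the days while the wells stayed apart on both. Without scaling the day 16 value was 0.87, under the 2-fold line. The relative KCNH7 reached 70.9, 84.8 and 72.2 TPM in high against 11.4, 25.6 and 25.3 TPM in wells of low purity on day 16, a difference of 2.12 (SE 0.31, adjusted p = 1.7e-07). KCNQ5 reached 67.9, 83.2 and 80.1 against 18.8, 22.0 and 25.0 TPM, a difference of 1.99 (SE 0.12, adjusted p = 5.83e-18). On day 4 both had lain lower in the high purity wells without overlap and without a call by limma, at -0.85 (SE 0.27, adjusted p = 0.00957) for KCNH7 and -0.55 (SE 0.11, adjusted p = 3.96e-05) for KCNQ5. On recovered reads KCNH7 was called there, at -1.91 by edgeR. KCNQ1, the pore of the slow delayed rectifier, read 5.46, 3.22 and 4.33 against 2.08, 2.63 and 2.12 TPM and stayed under the 2-fold line, at 0.88 (SE 0.21, adjusted p = 0.000469), but was called without high purity well 2, at 1.09, and by edgeR on recovered reads, at 1.18. It lay on the same side on day 4, at 0.337, 0.789, 0.424 and 0.427 against 0.090, 0.174, 0 and 0 TPM, a difference of 0.47 (SE 0.18, adjusted p = 0.0345) that edgeR on recovered reads called, at 2.76. The gene is overlapped by an antisense transcript, and the strand setting of the counting is not given in the sources used here, so its value is uncertain.

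In the Kv1 family the classes differed for single members. KCNA5 read 18.9, 15.5, 15.9 and 17.8 TPM in high and 3.37, 4.95, 2.22 and 2.57 TPM in wells of low purity on day 6, a difference of 2.07 (SE 0.15, adjusted p = 3.46e-15). On day 16 it read 12.6, 14.5 and 14.1 against 19.7, 16.1 and 16.9 TPM and was not called. KCNA7, a Kv1 channel of muscle, read 5.63, 6.92 and 6.39 against 1.18, 1.44 and 0.780 TPM on day 16, a difference of 2.01 (SE 0.24, adjusted p = 1.2e-09). The transient outward pore KCND3 (Kv4.3) lay lower on day 4 in high purity wells, at 0.0775, 0.0555, 0.0836 and 0.168 against 2.48, 1.44, 1.38 and 2.20 TPM, a difference of -1.34 (SE 0.11, adjusted p = 3.9e-14). The silent subunit KCNG1 read 37.8, 34.5, 41.9 and 34.8 against 15.5, 17.4, 16.3 and 14.4 TPM on day 4, a difference of 1.18 (SE 0.12, adjusted p = 2.08e-11). By the last day it read 2.93, 2.76 and 3.09 against 10.7, 13.2 and 9.88 TPM, -1.48 (SE 0.14, adjusted p = 1.38e-12), with the low purity wells on top.

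The partners of the acetylcholine-activated channel lay on opposite sides. KCNJ5 was near or at 0 on day 0 in every well and read 12.6, 11.1, 10.3 and 12.6 TPM in high and 10.6, 13.0, 12.0 and 12.2 TPM in wells of low purity on day 2, where the classes overlapped. On day 4 it read 8.51, 8.31, 9.83 and 6.55 against 1.02, 0.641, 0.892 and 0.861 TPM, a difference of 2.29 (SE 0.18, adjusted p = 3.04e-14), as the level held in the high purity wells and was far lower in the others. It ended at 22.0, 21.8 and 22.5 against 8.72, 11.4 and 11.4 TPM, a difference of 1.23 (SE 0.21, adjusted p = 3.97e-06). KCNJ3 read 14.6, 13.4, 14.9 and 10.2 TPM in high and 18.1, 20.9, 20.7 and 20.8 TPM in wells of low purity on day 4 and was not called there. On day 8 it read 2.03, 0.834 and 0.918 against 79.3, 69.0, 65.0 and 79.8 TPM, a difference of -4.89 (SE 0.19, adjusted p = 6.91e-25). The low purity wells had passed their peak by day 16, at 18.2, 12.8 and 9.46 TPM against 1.57, 1.10 and 1.08 TPM, still apart by -2.55 (SE 0.20, adjusted p = 1.33e-14). The class with more KCNJ5 had less KCNJ3 on days 6, 8, 13 and 16.

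Other inward rectifiers differed in direction, and KCNJ12 and KCNJ11 were called higher in the high purity wells. KCNJ13 was called lower there on day 8, at a log2 fold change of -1.03, and KCNJ15 on day 13, at -1.00. KCNJ12 (Kir2.2), which helps set the resting potential, read 2.15, 2.38, 2.32 and 3.10 against 0.644, 0.520, 0.882 and 0.287 TPM on day 4, a difference of 1.13 (SE 0.18, adjusted p = 1.09e-06). At the end it read 4.60, 6.63 and 6.11 against 0.772, 1.22 and 1.95 TPM, a difference of 1.79 (SE 0.20, adjusted p = 6.35e-10). Its near copy KCNJ18 stayed at or under 0.228 TPM, and how reads were split between them is uncertain. KCNJ11 (Kir6.2), the pore of the cardiac ATP-sensitive channel, read 6.08, 6.83 and 6.07 against 0.506, 1.73 and 1.51 TPM, a difference of 1.97 (SE 0.24, adjusted p = 3.45e-09). KCNJ2 (Kir2.1), the main pore of the adult resting current, was low throughout. Its 2 high purity wells of day 13 read 2.48 and 4.36 TPM against 0.0945, 0.263, 0.516 and 0.353 TPM in the low purity wells, a difference of 1.85 (SE 0.20, adjusted p = 1.94e-10), while on day 16 the classes overlapped, at 0.490, 1.81 and 1.36 and 0.293, 0.877 and 0.288 TPM.

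The leak channels of the K2P family that were called at the end were higher in the low purity wells. KCNK6 (TWIK-2), a leak channel of vascular muscle, read 5.70, 7.42, 8.86 and 6.47 against 19.5, 18.2, 18.5 and 20.2 TPM on day 4, a difference of -1.31 (SE 0.10, adjusted p = 7.03e-15). It read 5.54, 6.36 and 7.29 against 31.0, 31.4 and 28.6 TPM on day 16, a difference of -1.90 (SE 0.12, adjusted p = 2.53e-18). KCNK3 (TASK-1), a leak channel of the atrium, read 1.61, 1.19 and 0.952 against 6.34, 6.28 and 5.84 TPM on day 16, a difference of -1.57 (SE 0.16, adjusted p = 1.19e-11). KCNK1 (TWIK-1) changed sides between early and late wells. It read 20.1, 23.4, 22.3 and 18.9 TPM in high and 8.89, 9.65, 10.9 and 10.0 TPM in wells of low purity on day 2 (1.09, adjusted p = 3.87e-09), and 0.849, 1.89 and 1.79 against 7.00, 6.55 and 5.33 TPM on day 16, a difference of -1.45 (SE 0.15, adjusted p = 5.15e-11). In all, 3 of the 8 K2P genes were called on day 16, each lower in the high purity wells, with a median of -0.70 for the family.

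Calcium-activated potassium channels were on different sides. KCNMA1, the large-conductance (BK) pore of smooth muscle, read 0.876, 0.805, 1.02 and 1.11 TPM in high and 12.5, 12.4, 11.8 and 11.5 TPM in wells of low purity on day 4, a difference of -2.71 (SE 0.11, adjusted p = 1.29e-23). Low purity wells stayed high, at 25.9, 20.9, 20.4 and 24.3 TPM on day 8 against 0.907, 0.922 and 0.766 TPM, and at 23.1, 18.7 and 18.9 TPM on day 16 against 1.86, 2.18 and 2.07 TPM, a difference of -2.67 (SE 0.13, adjusted p = 2.52e-21). KCNN2 (SK2), a small-conductance channel of the atrium, read 3.90, 2.91, 3.56 and 2.57 against 10.2, 11.9, 8.93 and 13.0 TPM on day 4, a difference of -1.49 (SE 0.12, adjusted p = 1.49e-13). It read 20.2, 20.5 and 20.9 against 10.2, 10.3 and 11.4 TPM on day 16, a difference of 1.10 (SE 0.14, adjusted p = 1.54e-08), with the order of the classes turned round, although without scaling the day 16 value was 0.89 and no longer called. Over the 17 outward current genes, 2 were higher and 3 lower on day 4, and 6 were higher (KCNH2, KCNJ11, KCNJ12, KCNJ5, KCNN1 and KCNN2) and 2 lower (KCNJ3 and KCNK3) on day 16.

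Of the 15 accessory subunits on the cardiac list, 1 was called on day 2 and none on day 4. On day 16, 2 were higher (CACNB2 and KCNIP2) and 2 lower (KCNE4 and SCN3B) in high purity wells. KCNIP2 (KChIP2), the subunit that brings Kv4 pores to the membrane, read 64.0, 76.1 and 60.4 TPM in high and 24.6, 35.5, 37.4 and 29.9 TPM in wells of low purity on day 8, a difference of 1.28 (SE 0.20, adjusted p = 8.7e-07). Its day 16 wells read 123, 119.9 and 116 against 30.3, 38.9 and 41.2 TPM, a difference of 1.91 (SE 0.22, adjusted p = 4.44e-10), and the high purity wells were the highest of any channel gene there. CACNB2, the main beta subunit of the cardiac L-type channel, read 34.0, 38.5 and 36.7 against 13.0, 17.6 and 18.3 TPM, a difference of 1.34 (SE 0.13, adjusted p = 1.73e-11). CACNG6, a gamma subunit of muscle, read 15.2, 17.7 and 14.0 against 1.46, 2.98 and 3.39 TPM, a difference of 2.47 (SE 0.25, adjusted p = 3.27e-11). CACNA2D1, the alpha2delta subunit of the same channel, was lower in high purity wells on day 2, at 11.0, 8.07, 8.69 and 10.5 against 22.8, 19.6, 20.3 and 22.2 TPM, a difference of -1.02 (SE 0.10, adjusted p = 2.02e-11). That call was lost, at -0.94 to -0.99, without high purity well 2 or 3 or low purity well 1. On day 4 the high purity wells lay above the others, at 0.48 (SE 0.10, adjusted p = 0.000107), not called. They lay below again on day 6, at 4.43, 3.44, 3.42 and 2.06 against 11.2, 10.0, 9.0 and 11.3 TPM, a difference of -1.41 (SE 0.10, adjusted p = 7.79e-16), and on day 8, at -1.12 (SE 0.11, adjusted p = 6.05e-12), or -0.98 and not called without high purity well 1. By day 16 its wells overlapped, at 9.12, 9.60 and 10.8 and 10.7, 11.6 and 12.5 TPM.

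The other accessory genes with large differences were higher in the low purity wells. KCNE4, an inhibitory partner of KCNQ1 and Kv1 pores, read 0.0801, 0.135 and 0 TPM in high and 3.52, 1.28, 2.68 and 4.19 TPM in wells of low purity on day 8, a difference of -1.71 (SE 0.15, adjusted p = 7.36e-13). On day 16 it read 0.346, 0.323 and 0.268 against 24.1, 20.5 and 18.9 TPM, a difference of -4.08 (SE 0.16, adjusted p = 1.55e-24), the channel gene furthest apart on that day. SCN3B, a sodium channel beta subunit, read 1.52, 1.48 and 1.29 against 18.8, 12.9 and 13.4 TPM, a difference of -2.60 (SE 0.22, adjusted p = 1.89e-13). KCNIP1 (KChIP1) read 0, 0.222 and 0 against 5.56, 3.70 and 4.63 TPM, a difference of -2.45 (SE 0.20, adjusted p = 7.86e-14). KCNE1, the KCNQ1 partner of the slow delayed rectifier, overlapped, at 1.46, 2.07 and 2.20 and 1.63, 1.33 and 2.17 TPM. Its near copy KCNE1B had a median of 0.620 TPM over the multi-omic libraries, so reads may be shared.

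Markers of cell types moved with these day 16 differences. The 14 cardiomyocyte markers summed to 15763 to 17852 TPM in the high and 5819 to 9083 TPM in the low purity wells, with 8 called higher and 1 lower. The 9 fibroblast and stromal markers summed to 591 to 714 against 9772 to 13267 TPM, with 8 called lower. Smooth muscle markers summed to 273 to 289.8 against 1371 to 1492 TPM, with 5 of 6 tested called lower. MYH11, the listed smooth muscle marker that was not tested, was at 0 in both classes. Epicardial markers summed to 18.7 to 22.9 against 413 to 565 TPM, with 7 of 7 called lower. Neural markers were low, at 10.2 to 12.5 against 35.4 to 41.1 TPM, and the neural regulator SOX1 was at 0 in the high purity wells. Of the 8 endothelial markers 5 were called higher and 2 lower in the high purity wells, with a median of 1.72, while their sum was lower, at 57.9 to 71.9 against 160.0 to 237 TPM. Of the 6 endoderm markers 2 were higher and 1 lower, with overlapping sums of 77.1 to 484 against 467 to 1249 TPM. The part of these cell types in the channel results was not tested.

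To test whether the class difference itself changed, the day 16 difference was set against the day 4 difference in 1 fit. It differed for 29 of the 109 genes, 14 upward (6.79% of all genes) and 15 downward (8.74%), beside 15.5% in either direction. CACNA1D changed by 3.04 (SE 0.26, adjusted p = 3.83e-13) on the log2 scale, CACNA1C by 2.51 (SE 0.19, adjusted p = 3.71e-15) and HCN4 by 2.17 (SE 0.20, adjusted p = 4.41e-12). KCNH2 changed by 2.30, KCNH7 by 2.97, KCNQ5 by 2.54, KCNN2 by 2.59 and CACNG6 by 3.21. In these 8 genes the high purity wells gained on the low purity wells between the days. KCNE4, at -4.01, KCNG1, at -2.66, KCNIP1, at -2.18, and KCNJ3, at -1.98, went the other way. KCNE4 was at 0 TPM in every high purity well of day 4, and edgeR on recovered reads gave it an adjusted p of 0.872.

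The change from day 0 to day 16 also differed between the differentiations for 31 genes, 15 upward (5.46% of all genes) and 16 downward (7.99%), beside 13.4% in either direction. KCNE4, KCNJ3, KCNMA1, KCNIP1, SCN3B, KCNK6, SCN7A and HCN2 rose in the low purity differentiation and were not called in the high purity one, and the test of the difference was passed for each. The difference was -4.01 (SE 0.22, adjusted p = 1.42e-19) for KCNE4, -2.47 (SE 0.17, adjusted p = 9.54e-16) for KCNMA1 and -2.27 (SE 0.29, adjusted p = 2.33e-08) for SCN3B. KCNIP2, KCNQ5, KCNH7, CACNA1D and CACNG6 rose in both differentiations and more in the high purity one, with differences of 1.88, 1.89, 2.11, 1.82 and 2.54. KCNA7, KCNJ12 and KCNN2 rose in the high purity differentiation and were not called in the low purity one, with differences of 1.92, 1.75 and 1.63. For KCNA7 the difference was not called on recovered reads, with an adjusted p of 0.155 by edgeR and 0.0674 by DESeq2. Neither differentiation changed 45 of the genes by the call rule, among them CACNA1H, KCND3 and KCNJ2.

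**Figure D3:**
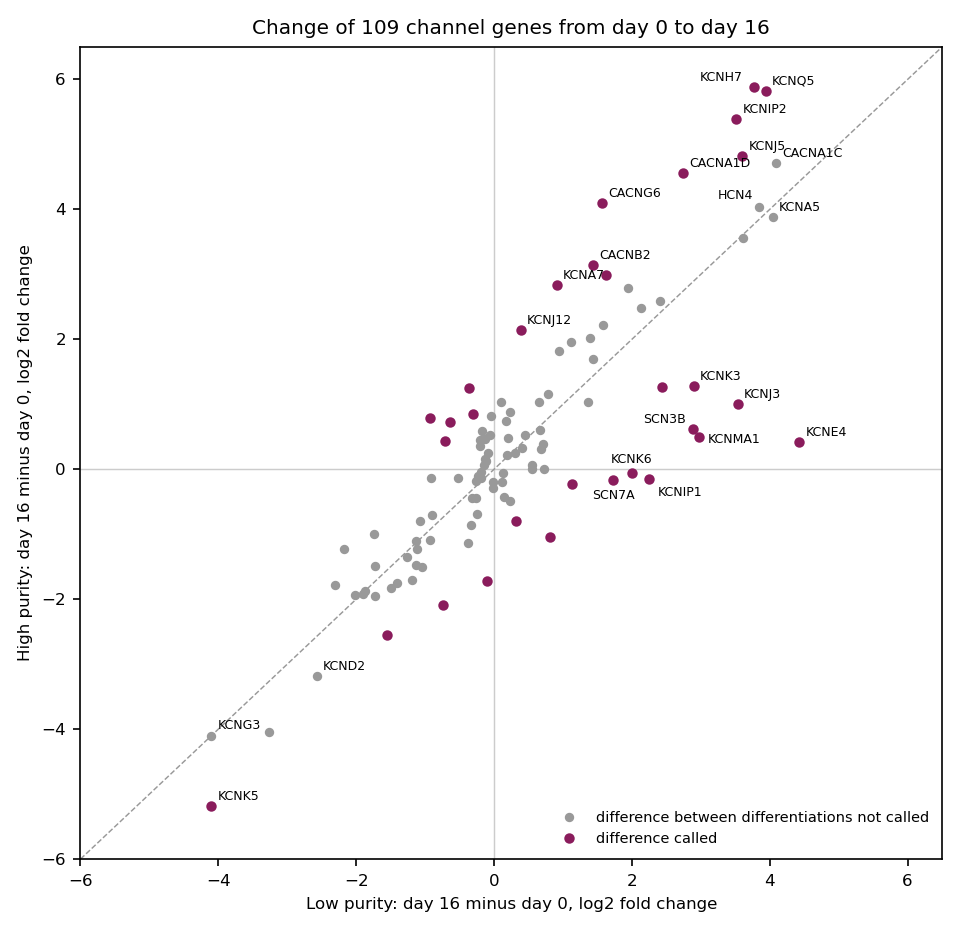
Log2 change from day 0 to day 16 of the 109 channel genes, 1 point per gene, in the low purity differentiation (horizontal axis) and the high purity differentiation (vertical axis), with a dashed line where both are equal and purple for genes whose change was called different. KCNH7, KCNQ5 and KCNIP2 lie above the line at the upper right, KCNE4, KCNJ3 and KCNMA1 lie right of the line near the horizontal axis, and KCNK5 and KCNG3 lie at the lower left.

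Genes that work with the channels but lie outside the symbol rule were looked at as a list of 32, of which 27 were tested. From day 0 to day 16, 15 rose and 5 fell in the high and 13 rose and 3 fell in the low purity differentiation. On day 4, 2 of them, including FGF12, were higher and POPDC2 and SLC8A1 lower in the high purity wells. SLC8A1, the sodium-calcium exchanger NCX1, averaged 2.17 ± 0.591 TPM (SD, n = 4) against 49.4 ± 3.92 TPM (SD, n = 4) on day 4, and 557 ± 33.4 TPM (SD, n = 3) against 237 ± 58.4 TPM (SD, n = 3) on day 16, so it turned round as the L-type genes did. On day 16, 9 partners were higher (among them ANK2, ATP1B2, FGF13, GPD1L, LRRC10 and SLC8A1) and 3 lower (DPP10 and GEM among them).

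The RNA-only experiment asked whether purity classes differed over 3 lines in the first week. Of the 107 channel genes tested there with edgeR, none was called at any stage, nor was any of the 24810 genes tested (0%). At an unadjusted p under 0.05 there were 1, 10, 14 and 21 channel genes at stages 1 to 4, beside 1.46%, 7.74%, 7.37% and 11.8% of all genes. DESeq2 called 0, 1 (SCN7A), 1 (KCNAB1) and 6 (CACNA1D, KCNIP4, CACNA2D4, KCNJ8, KCNJ12 and CACNA1G), beside 0%, 0.434%, 0.36% and 1.19% of all genes, and limma on log2(TPM + 1) called 0, 0, 0 and 1 (CACNA1D). With 1 differentiation per line and class, these values have the spread of 3 lines behind them.

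At stage 4 CACNA1D read 3.49, 7.57 and 3.66 TPM in the high and 0.158, 1.70 and 1.80 TPM in the low purity differentiations of H9, IMR90-4 and WTC11, higher in each line. Its log2 fold change was 2.45 (SE 0.54, adjusted p = 0.227) by edgeR. CACNA1G read 2.88, 1.58 and 1.36 against 1.27, 0.316 and 0.627 TPM in the same order of lines, 1.51 (SE 0.37, adjusted p = 0.24), and KCNJ12 5.25, 5.06 and 4.26 against 0.247, 2.88 and 1.89 TPM, 1.95 (SE 0.62, adjusted p = 0.289). KCNJ8 read 4.30, 3.67 and 3.13 against 1.12, 1.80 and 1.12 TPM, and KCNIP2 1.89, 6.22 and 2.16 against 1.02, 0.754 and 1.68 TPM. KCNJ5 read 14.8, 11.0 and 9.45 against 0.357, 7.37 and 1.67 TPM at stage 2, though no test called it. These genes were named for their differences, so the order of their values is a description. The order of the classes was also counted over the 71 channel genes with at least 1 TPM in 3 RNA-only libraries. At stages 1 to 4, 10, 15, 17 and 18 had the high above the low purity value in all 3 lines. These are 14.1%, 21.1%, 23.9% and 25.4%, beside 10.9%, 19.3%, 21.6% and 14.8% of the 18743 genes at that level. The high purity value was below in all 3 lines for 7.04%, 9.86%, 5.63% and 7.04%, beside 10%, 11.5%, 7.37% and 17.4%. The gaps were not tested. KCNJ3 did not have the high above the low purity value in every line at stage 4. It read 5.69, 1.15 and 4.26 against 30.3, 0.156 and 3.19 TPM, where only the low purity H9 library stood out. That library also had 2.91 TPM of KCNMA1, 6.27 of SCN3B and 2.40 of KCNE4, against at most 0.409, 0.252 and 0.0875 TPM in the other 5 libraries of stage 4. Its 9 fibroblast and stromal markers summed to 1733 TPM against 489 TPM in the high purity H9 library, and its 14 cardiomyocyte markers to 437 against 2595 TPM. The part of those cells in the result was not tested. In WTC11, the line of the multi-omic experiment, stage 4 is day 6, and passage 69 was the low purity one in both experiments. KCNJ3 and KCNMA1 were called lower in the high purity class on multi-omic day 6. The WTC11 pair here had more KCNJ3 at high purity and at most 0.409 TPM of KCNMA1. Its fibroblast and stromal markers summed to 324 (high) and 229 TPM (low), the reverse of the order on multi-omic day 6. Why the experiments differed was not tested.

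**Figure D4:**
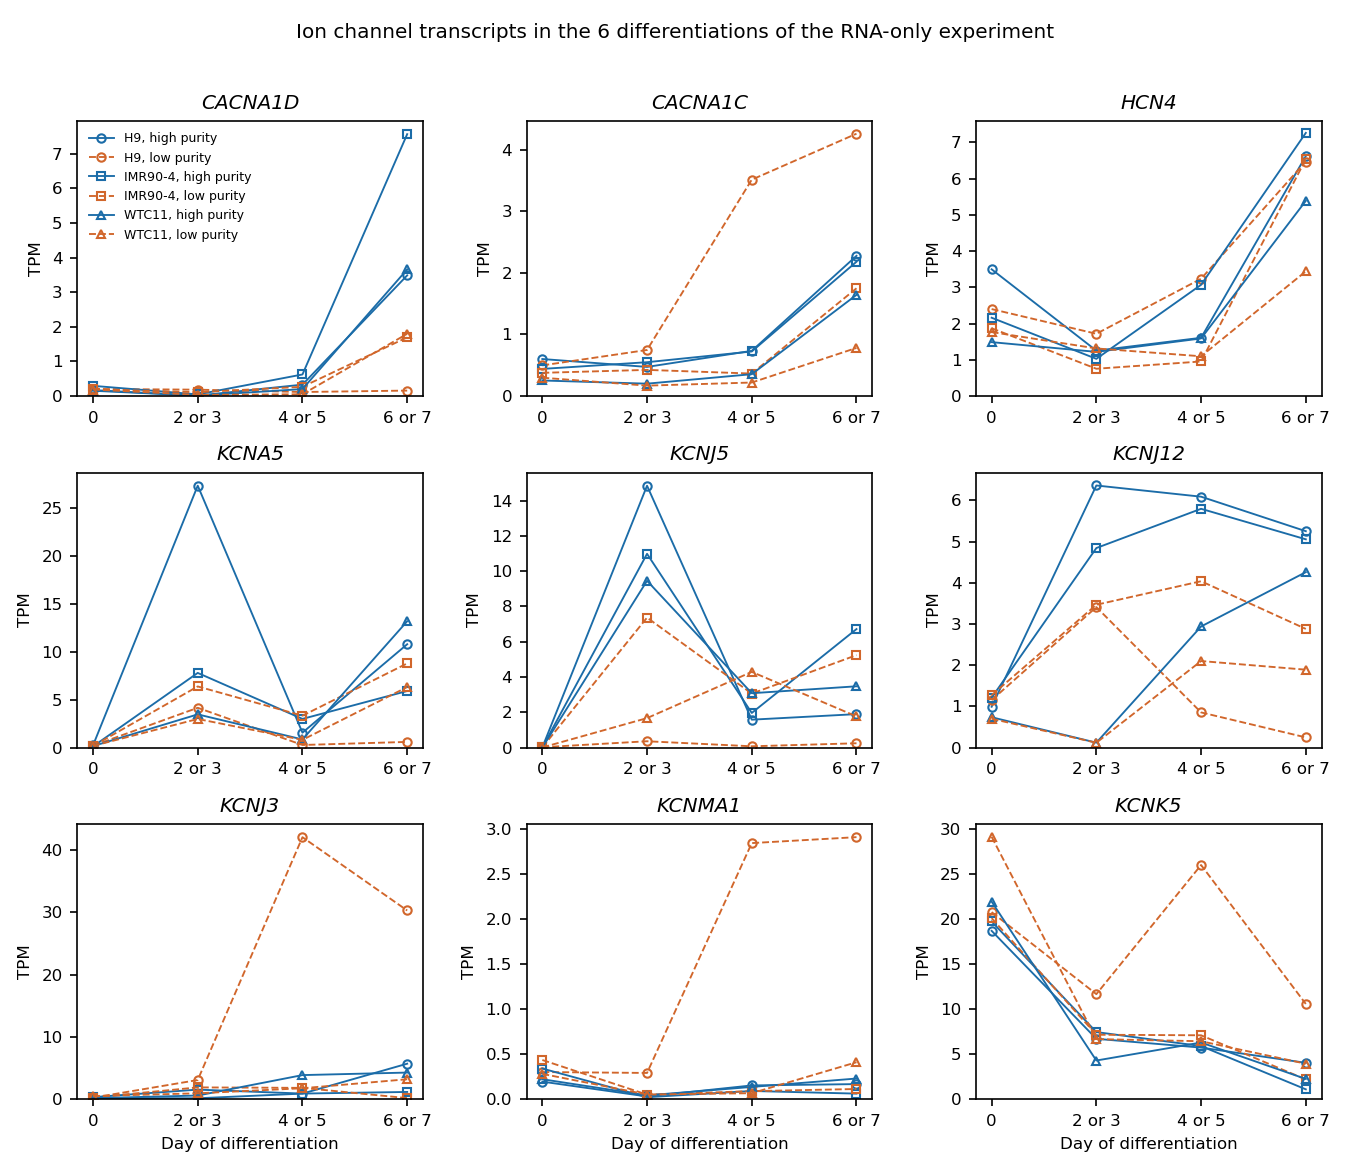
Level of 9 channel genes (vertical axis, TPM) by day of the RNA-only experiment (horizontal axis, stages 1 to 4), 1 line per differentiation, solid blue for high and dashed orange for low purity, with a circle for H9, a square for IMR90-4 and a triangle for WTC11. At the last stage every high purity value of CACNA1D is above the low purity value of its line, and the low purity H9 library stands above all others for KCNJ3 and KCNMA1.

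The change over the first week was tested over the 6 RNA-only differentiations together. From stage 1 to stage 4, 57 of 105 channel genes tested with edgeR changed, 31 up and 26 down, beside 39.5% of all genes (23.4% up and 16.2% down). Of the 57, 36 averaged at least 1 TPM in a group, and limma on log2(TPM + 1), the method of the multi-omic counts, called 22, 17 up and 5 down, beside 21.8% of all genes. KCNJ5, which had 0 to 2 reads in each library of stage 1, read 1.90, 6.72 and 3.47 TPM in the high and 0.243, 5.24 and 1.77 TPM in the low purity differentiations at stage 4. KCNA5 changed by 5.37 on the log2 scale, KCNJ3 by 3.90, CACNA1D by 3.85 and CACNA1C by 2.30. KCND2 changed by -4.84, KCNG3 by -4.12, KCNK5 by -2.70 and HCN2 by -1.80. Of the 22 genes that rose from day 0 to day 16 in both multi-omic differentiations, 18 (81.8%) also rose here, which is 58.1% of the 31 risers of this experiment. The exceptions were CACNA1G, CACNB2, KCNIP2 and KCNQ1. Of the 21 that fell, 17 (81.0%) also fell here, which is 65.4% of its 26. None of these 22 and 21 genes was called in the opposite direction here. HCN2, which rose in the low purity multi-omic differentiation only, fell here. With limma's calls here, 12 of the 22 (54.5%) rose and 5 of the 21 (23.8%) fell. These overlaps are not set beside those of all genes, so they describe the channel genes only. The spans differ, since stage 4 is day 6 or 7, and KCNIP2 stood at 5.23 TPM on day 6 and 66.8 TPM on day 8 in the high purity wells of the multi-omic experiment.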

How the data were processed

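The submitters' processing notes name STAR 2.5.3a, featureCounts 2.0.3 and hg38, and the authors deposited counts and TPM per gene. Of the 56 deposited multi-omic count columns, 0 matched the equally named TPM column read for read and 50 matched another. A library's nearest neighbour was of its own group for 54 of 55 TPM columns and for 28 of the count columns, so the deposited TPM values were used. From them 100% of values came out as whole reads (tolerance 0.05), the basis of the edgeR and DESeq2 alternatives. In the RNA-only experiment all 24 deposited count columns matched, after 36 broken lines were left out.

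TPM were scaled by TMM and tested with limma 3.58.1 (trend) on log2(TPM + 1) over 25664 genes with at least 1 TPM in 3 libraries, in 1 fit of 16 group means (40 residual degrees of freedom). RNA-only counts were tested with edgeR 4.0.16 (quasi-likelihood, line as a block), with DESeq2 1.42.0 as an alternative, in R 4.3.3. Adjusted p-values are Benjamini-Hochberg over all genes tested. Scripts were tested on simulated data. Day 10 was not tested. Without scaling, the median of all genes moved to -0.18 on day 8, -0.13 on day 13, -0.12 on day 16, -0.15 for day 16 against day 4 and -0.17 between the differentiations, and to 0.12 for the low purity change from day 0. Members and lists were chosen with earlier results of these data known. Named genes are those of the cardiac lists, the up to 8 called members with the largest fold change per direction and comparison (mean of at least 1 TPM in a group), members called the same way on 5 or more days, and the member with the highest mean in each family; some of these are not reported here. The lists of partners outside the rule and of cell type markers were counted. Counting intervals and the limit of 3 reads cover counting error only.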

Additional observations from a re-analysis of the deposited data

Results flagged for a closer look

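In groups of 4 wells, 1 well lay far from the other 3 for 5 of the 65 gene and group combinations looked at, and chance alone gives about 1 in 20. KCNG3 in the low purity wells of day 0 had 1 well at 21.1 TPM, whose gap to the nearest well was 0.888 of the range of the group. KCNJ3 in the low purity wells of day 4 had 1 well at 18.1 TPM, with a gap of 0.935 of the range, and KCNK5 in the low purity wells of day 0 had 1 well at 26.1 TPM, with a gap of 0.831. The low purity wells of day 4 also had 1 well apart for KCNH7, at 2.03 TPM with a gap of 0.842, and for KCNQ5, at 19.9 TPM with a gap of 0.908. None of these genes was called between the classes by limma on the day concerned.

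The change from day 0 to day 16 differed between the differentiations by a test of the difference itself (limma, adjusted p from 1.42e-19 to 4.58e-05). Log2 differences (high purity change minus low purity change) below 0 were found for KCNE4 (-4.01), KCNJ3 (-2.54), KCNMA1 (-2.47), KCNIP1 (-2.41), SCN3B (-2.27), KCNK6 (-2.06), SCN7A (-1.89), KCNK3 (-1.62) and HCN2 (-1.36). Those above 0 were found for CACNG6 (2.54), KCNH7 (2.11), KCNA7 (1.92), KCNQ5 (1.89), KCNIP2 (1.88), CACNA1D (1.82), KCNJ12 (1.75), KCNJ11 (1.72), CACNB2 (1.70), KCNN2 (1.63) and CACNA1G (1.37). For KCNK3 the adjusted p was 0.072 by edgeR on recovered reads. All of these but HCN2 were also called between the classes on day 16.

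The difference between the classes was itself different on day 16 and day 4, again by a test of the difference (adjusted p from 9.1e-20 to 7.02e-08). High purity wells gained for CACNG6 (3.21), CACNA1D (3.04), KCNH7 (2.97), KCNN2 (2.59), KCNQ5 (2.54), CACNA1C (2.51), KCNH2 (2.30) and HCN4 (2.17), and low purity wells gained for KCNE4 (-4.01), KCNG1 (-2.66), KCNIP1 (-2.18) and KCNJ3 (-1.98). Among the first, CACNA1D, KCNH2 and KCNN2 were called lower in the high purity wells on day 4 and higher on day 16.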

How the results depend on the processing

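Of 2358 values of named genes under the alternatives, 2313 kept their direction and their side of the call rule, 11 lost the call, 34 gained it and none turned round. Counts depended on the pseudocount, which shrinks differences of low genes. With a pseudocount of 0.1 the purity classes differed for 3, 12, 35, 33, 40, 41 and 50 channel genes on the 7 tested days, in order of time. With edgeR on recovered reads the numbers were 4, 15, 35, 34, 42, 43 and 53, and with DESeq2 4, 16, 36, 34, 42, 43 and 54, and 44 for the test of day 16 against day 4. On adjusted p alone, with no fold change threshold, they were 16, 38, 55, 57, 63, 57 and 63, with 85 for day 0 to day 16 in the high purity differentiation, 60 for the test of day 16 against day 4 and 55 for the test between the differentiations. In the RNA-only experiment DESeq2 called 1 gene at stage 2, 1 at stage 3 and 6 at stage 4, and limma 1 at stage 4 and 22 between stages 1 and 4. Except where a share of all genes was given above, the counts of this section are not set beside all genes. They describe the channel genes only.

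Leaving out each well in turn gave 0 to 0, 3 to 6, 16 to 19, 16 to 20, 22 to 30, 20 to 24 and 26 to 28 calls on those days. The change from day 0 to day 16 had 52 to 56 in the high and 52 to 54 in the low purity differentiation. The test of day 16 against day 4 had 25 to 30 and that between the differentiations 29 to 32. Leaving out each line gave 0 to 0, 0 to 0, 0 to 1 and 0 to 0 calls at stages 1 to 4, the 1 being KCNH7 without H9 at stage 3, and 49 to 60 between stages 1 and 4.

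Well numbers are shared between the classes, but in 0 of 24 same-number pairs did deviations from the group means correlate over 0.1 (range -0.02 to 0.03). The labels do not say whether wells of the same number were handled together, and these values cannot settle it. With the replicate number as a block the counts were 0, 5, 18, 19, 26, 21 and 26 on days 0 to 16, 54 and 52 for the changes from day 0, 30 for day 16 against day 4 and 31 between the differentiations. In the RNA-only experiment, which is paired by line, the fit without the block gave 0 at each stage and 54 between stages 1 and 4.

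Library size limits the low genes: a value of 0 TPM allows up to 3 reads.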

Other observations

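Day 10 had 1 high purity well and 4 low purity wells and entered no comparison. On that day KCNIP2 read 87.2 TPM in the high purity well and 37.5, 34.3, 35.7 and 24.4 TPM in the low purity wells. KCNMA1 read 3.29 TPM in the high purity well and 22.6, 19.8, 19.6 and 22.3 TPM in the low purity wells, and KCNJ3 read 0.928 TPM in the high purity well and 56.8, 49.9, 49.5 and 60.0 TPM in the low purity wells. CACNA1D read 25.0 TPM in the high purity well and 11.0, 12.9, 11.0 and 9.43 TPM in the low purity wells, and HCN4 read 75.8 TPM in the high purity well and 96.1, 87.2, 86.8 and 72.5 TPM in the low purity wells. The high purity value lay outside the range of the low purity wells for KCNIP2, KCNMA1, KCNJ3 and CACNA1D, on the side that the classes had on day 8.

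Some families were led by genes outside the cardiac lists. KCNT2, a sodium-activated potassium channel, averaged 15.0 TPM over the multi-omic libraries, with a range of 7.90 to 25.6 TPM. It was called between purity classes on no day, but came close on day 8, when all high purity wells lay below all low purity wells. Its means there were 9.32 against 22.6 TPM, a difference of -0.98 by limma (SE 0.09, adjusted p = 3.97e-13). KCNMB4, the neuronal beta subunit of the BK channel, averaged 9.54 TPM, with a range of 6.71 to 13.7 TPM, while its pore KCNMA1 differed between the classes as described. SCN8A, the neuronal sodium channel Nav1.6, averaged 7.24 TPM and fell from day 0 to day 16 in both differentiations.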
